A study of Mus musculus with 2 samples.

Results

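The genes examined here encode the proteins of the cytosolic ribosome. They were taken by symbol from the platform's probe annotation (Rpl or Rps followed by a number, Rplp0, Rplp1, Rplp2 and Rpsa), without the Rps6k kinase genes, of which 6 were left out, and without pseudogenes, of which there were 0. This gave 75 of the 15056 genes on the arrays, 47 of the large and 28 of the small subunit, measured by 121 of the 38976 features. By their names 7 of the 75 are not standard ribosomal proteins but paralogues or partners (Rpl3l, Rpl7l1, Rpl22l1, Rpl36al, Rpl39l, Rps27l and Rps19bp1), and they are described apart.

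RNA came from whole mammary glands of adult GATA-3flox/flox; WAP-rtTA-Cre mice, called null here, and of GATA-3flox/+; WAP-rtTA-Cre mice, called het, which keep a wild-type Gata3 allele. Both genotypes carried the Cre transgene and received doxycycline for 5 days. The milk protein promoter WAP restricts the transgene to mammary epithelium, so the fat, stroma and immune cells of the gland keep Gata3. On each of 2 arrays null RNA carried Cy3 and het RNA carried Cy5, and 0 arrays had the dyes exchanged. How many animals contributed to an array goes unstated in the sources used here, and errors between the arrays may be technical.

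Each value is a log ratio of the channels of an array, read as log2. The sources used here do not give the numerator. Were it Cy3, a negative ratio would mean less RNA in the null gland, and were it Cy5, less in the het gland, so signs are given as deposited. A difference between the dyes in labelling a transcript cannot be told apart from a difference between the genotypes. The ratios carry no level, so the tissue could not be checked against its defining markers. Gata3 itself, the deleted gene, stood at 1.60 (array 1) and 0.20 (array 2) from 1 feature, and did not pass the gene-level test (limma adjusted p = 0.156). Where that feature lies relative to the deleted part goes unstated in the sources used here, so it checks neither the labels nor the sign. Over all features the arrays had medians of -0.00 and -0.03 and SDs of 0.67 and 0.44, and their ratios had a Pearson r of 0.587 across features, which are not independent replicates.

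The ribosome is built from ribosomal RNAs and about as many proteins as there are genes in the set, in a small subunit that reads the mRNA and a large subunit that joins amino acids. Ribosomal protein mRNAs are among the most abundant of any cell. They begin with a tract of pyrimidines, the terminal oligopyrimidine (TOP) tract, through which the kinase mTOR controls their translation together. In the mammary gland protein synthesis expands with the secretory epithelium of pregnancy and lactation. Ribosomal protein genes also have many processed pseudogenes, and whether the features tell these apart goes unstated in the sources used here.

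Starts of 9 members are printed to show pyrimidine runs near the annotated start of genes with ratios from the negative to the positive end. They are the 4 most negative and the 4 most positive members with a run of at least 7 pyrimidines within 5 bases of the annotated start, and Rpl13a. Each stretch, from RefSeq on GRCm38.p6, holds 50 bases before the start and 20 from the start on, with the run in capitals.
Rps21: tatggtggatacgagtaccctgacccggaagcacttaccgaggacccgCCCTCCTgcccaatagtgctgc
Rpl34: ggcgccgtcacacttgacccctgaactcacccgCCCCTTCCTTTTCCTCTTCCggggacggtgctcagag
Rps27: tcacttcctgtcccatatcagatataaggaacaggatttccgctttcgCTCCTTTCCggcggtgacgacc
Rpl7a: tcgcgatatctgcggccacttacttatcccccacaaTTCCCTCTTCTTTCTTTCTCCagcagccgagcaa
Rpl13a: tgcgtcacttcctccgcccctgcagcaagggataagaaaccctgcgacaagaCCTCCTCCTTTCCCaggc
Rps24: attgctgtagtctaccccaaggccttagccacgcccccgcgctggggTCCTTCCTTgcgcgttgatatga
Rps15a: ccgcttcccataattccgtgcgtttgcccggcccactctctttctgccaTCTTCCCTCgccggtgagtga
Rps27l: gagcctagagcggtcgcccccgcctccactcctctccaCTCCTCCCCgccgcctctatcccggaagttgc
Rpl39l: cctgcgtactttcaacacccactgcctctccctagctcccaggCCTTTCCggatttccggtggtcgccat

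These stretches lie at chr2:180257329-180257398 (+ strand, Rps21), chr3:130730318-130730387 (- strand, Rpl34), chr3:90213629-90213698 (- strand, Rps27), chr2:26910757-26910826 (+ strand, Rpl7a) and chr7:45128726-45128795 (- strand, Rpl13a). The others lie at chr14:24490628-24490697 (+ strand, Rps24), chr7:118116128-118116197 (- strand, Rps15a), chr9:66946036-66946105 (+ strand, Rps27l) and chr16:10170178-10170247 (+ strand, Rpl39l). The run was 20 bases in Rpl34, 21 in Rpl7a and 14 in Rpl13a, and 7 to 9 in the others. The runs of Rps27l and Rpl39l, with first bases at -12 and -7, lay wholly before the annotated start. That of Rpl13a began at base 3 from the start on. RefSeq windows of 250 bases before and 50 from the start on were matched for 61 of the 75 genes. Such a run, searched on the sense strand, came within 5 bases of the start in 26 of these 61 genes (42.6%). The share was 15.9% of the 12171 measured genes with a window. Since a run may lie wholly before the start, these are not shares of mRNAs that begin with a TOP tract. The members with the run had a median ratio of -0.32 and those without it -0.39. The motif CCGGAA, the core bound by ETS family factors such as GABPA, was in the windows of 33 members (54.1%), against 23.2% of all genes, on either strand. On the sense strand its complement begins with TTCC, which can be part of a pyrimidine run. AAGATGGC, the core bound by YY1, was in 6 members (9.84%), against 4.00% of all genes. TATAAA was in 7 (11.5%), against 14.1% of all genes. Members with CCGGAA had a median ratio of -0.39 and those without it -0.26. The other motifs went the other way, with -0.12 against -0.39 for AAGATGGC and -0.26 against -0.39 for TATAAA, with and without the motif. A match describes the letters in the window and is not evidence of binding.

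Ribosomal protein genes of both subunits had mostly negative ratios. On array 1 their median was -0.49 and on array 2 -0.43, against 0.01 and -0.01 for all genes. Both arrays gave a negative ratio for 56 of the 75 genes and a positive one for 10, and they went opposite ways for 9, where 34.1% of all genes were negative on both and 33.7% positive on both. The ratios of 47 members on array 1 and of 48 on array 2 lay below the lower quartile of all genes. Across the 75 members the arrays had a Pearson r of 0.754, a description over genes that share both arrays and their dyes.

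In the gene-level limma fit over all genes 10 members with a negative ratio and 1 with a positive ratio passed an adjusted p of 0.05, and 64 did not pass. Of all genes 0.983% passed with a negative ratio and 7.28% with a positive ratio. Among the members the shares were 13.3% negative and 1.33% positive. At an unadjusted p under 0.05, 36 members were negative and 5 positive, against 6.67% and 17.1% of all genes (limma). All 11 were measured by 1 feature each, and 0 of the 20 members with more features passed. Genes with several features passed rarely in any case: 0.136% of all such genes passed with a negative and 2.10% with a positive ratio, against 1.42% and 9.96% of all genes with 1 feature, so 0 of 20 is near that share. Of the single member features 79 were negative and 20 positive on both arrays, against 34.8% and 30.7% of all features. Over features 0 of the 121 member features and 0.0% of all features passed, with a lowest adjusted p of 0.0512 (limma). At an unadjusted p under 0.05, 47 member features were negative and 9 positive, against 6.47% and 15.5% of all features. The calls lay close to the threshold, and 25 negative and 3 positive members passed at an adjusted p of 0.1 (limma), against 2.55% and 11.5% of all genes. The self-test of this fit called unchanged genes more often than the threshold states, so single calls here are less firm than their adjusted p.

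**Figure D1:**
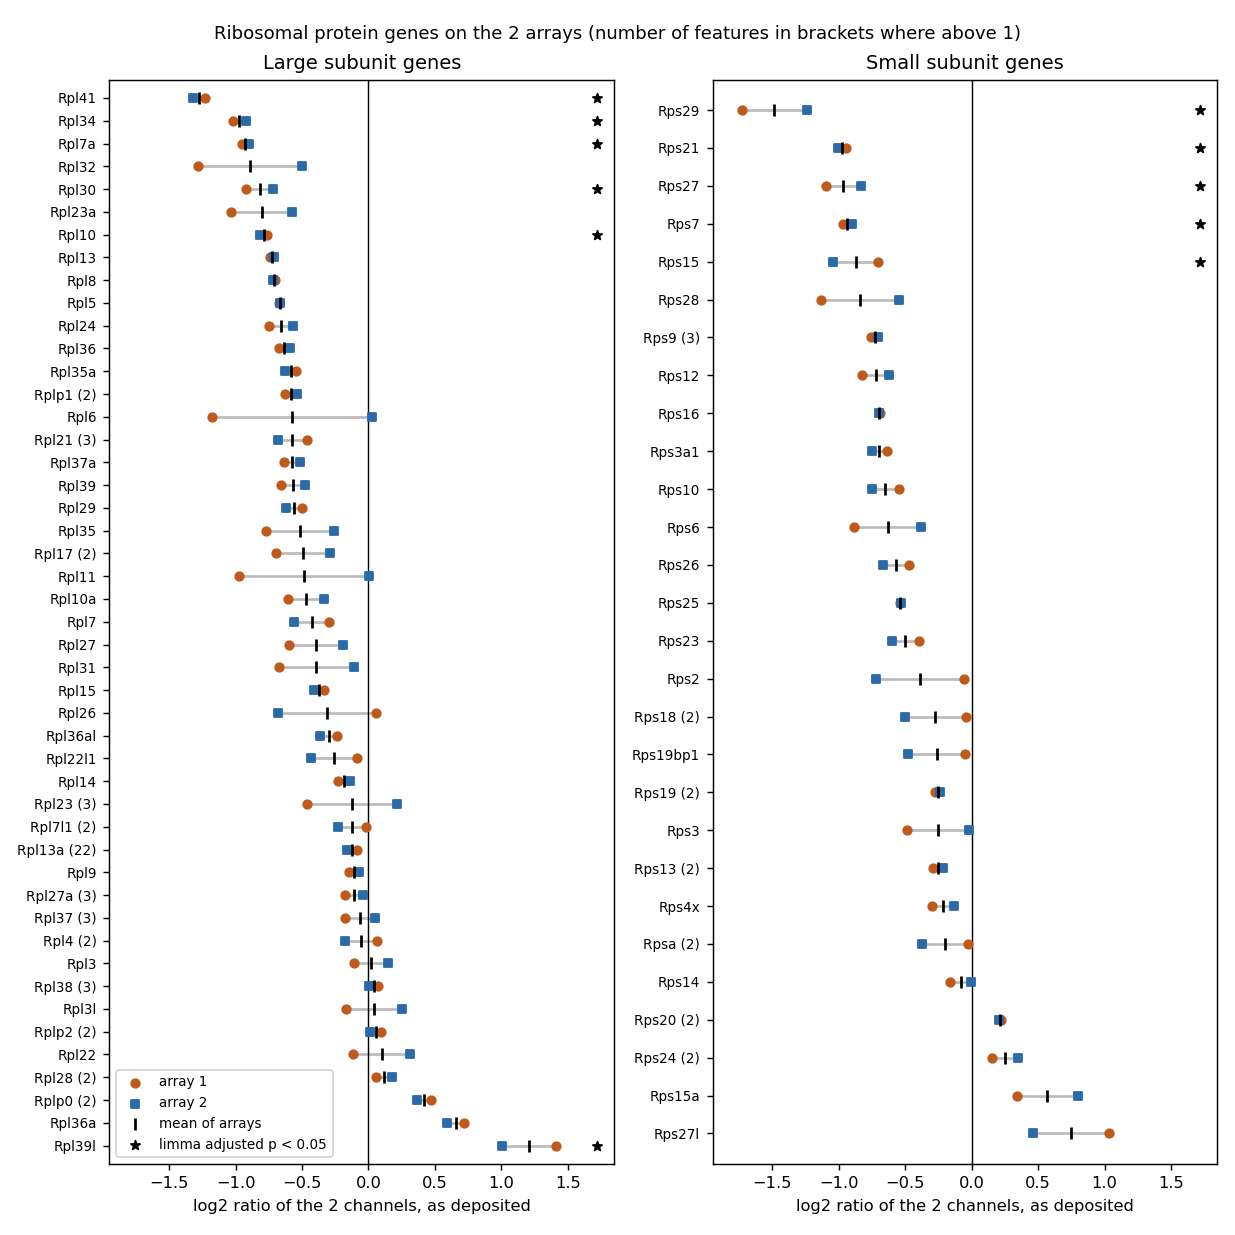
Log2 ratio as deposited (horizontal axis) of each of the 47 large and 28 small subunit genes, with array 1 as circles, array 2 as squares and the mean as a bar. Stars at the right edge mark the 11 genes with a gene-level limma adjusted p under 0.05. Most genes lie left of 0 on both arrays, and Rpl39l is at the positive end.

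The large subunit carries the peptidyl transferase centre and the tunnel through which the new protein leaves. The medians of its 47 genes were -0.50 (array 1) and -0.33 (array 2). Both arrays were negative for 32 of them and positive for 6, and 9 had opposite signs. Rpl41, the smallest ribosomal protein, had the most negative mean of this subunit, with -1.23 on array 1 and -1.32 on array 2. Its mean of -1.27 ± 0.07 (SD, n = 2) is a 2.42-fold difference and passed (limma adjusted p = 0.0336). Rpl34 stood at -1.02 and -0.92 and Rpl7a at -0.96 and -0.90, and both passed (limma adjusted p = 0.0336 and 0.0349). Rpl30, which in yeast represses splicing of its own transcript, stood at -0.92 and -0.72 (limma adjusted p = 0.0437). Rpl10, a late-joining protein near the catalytic centre, was at -0.76 and -0.82 (limma adjusted p = 0.0451). In each of these 5 genes the arrays differed by less than the distance of either value from 0.

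Other large subunit genes with means nearly as negative did not pass. Rpl32 had -1.28 on array 1 and -0.50 on array 2 (limma adjusted p = 0.0690), so the arrays differed by more than the smaller ratio. Rpl23a, at the exit of the tunnel, had -1.03 and -0.58 (limma adjusted p = 0.0575). Rpl13 (-0.74 and -0.71) and Rpl8 (-0.70 and -0.72) were nearly equal on the arrays and stood just outside the threshold, with limma adjusted p of 0.0553 and 0.0583. Rpl24, Rpl36, Rpl35a, Rpl37a, Rpl39 and Rpl29 had means from -0.66 to -0.56 with the same sign on both arrays. In contrast, Rpl6 stood at -1.18 on array 1 and 0.03 on array 2, and Rpl26 0.06 on array 1 and -0.68 on array 2. Their means of -0.57 and -0.31 each come from 1 array.

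The small subunit holds the decoding centre, where codon and anticodon are matched. The medians of its 28 genes were -0.48 (array 1) and -0.54 (array 2). Both arrays were negative for 24 of them and positive for 4, and 0 had opposite signs. The subunits lay in one order on array 1 (-0.50 large, -0.48 small) and in the other on array 2 (-0.33 large, -0.54 small), so the arrays did not order them alike. With 2 arrays an exact sign-flip test of such a difference cannot go below p = 0.5.

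Rps29, a small zinc-binding protein of the subunit's head, had the most negative mean of all members. Array 1 gave -1.73 and array 2 -1.24, with a mean of -1.48 ± 0.35 (SD, n = 2) or 2.80-fold (limma adjusted p = 0.0336). Of all genes only 0.432% on array 1 and 0.0863% on array 2 had a ratio as low. Rps21 followed at -0.95 and -1.01 and Rps27, another zinc-binding protein, at -1.10 and -0.83, and both passed (limma adjusted p = 0.0336 and 0.0353). Rps7 stood at -0.97 and -0.90 and Rps15, near the decoding centre, at -0.71 and -1.04 (limma adjusted p = 0.0347 and 0.0416). Rps28 had -1.13 and -0.55 and Rps12 -0.83 and -0.62, and neither passed (limma adjusted p = 0.0613 and 0.0600). Rps6, the protein phosphorylated by the S6 kinases downstream of mTOR, had -0.89 on array 1 and -0.38 on array 2 (limma adjusted p = 0.114). Rps16, Rps3a1, Rps10, Rps26, Rps25 and Rps23 had means from -0.69 to -0.50 and were negative on both arrays, with none past the test.

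**Figure D2:**
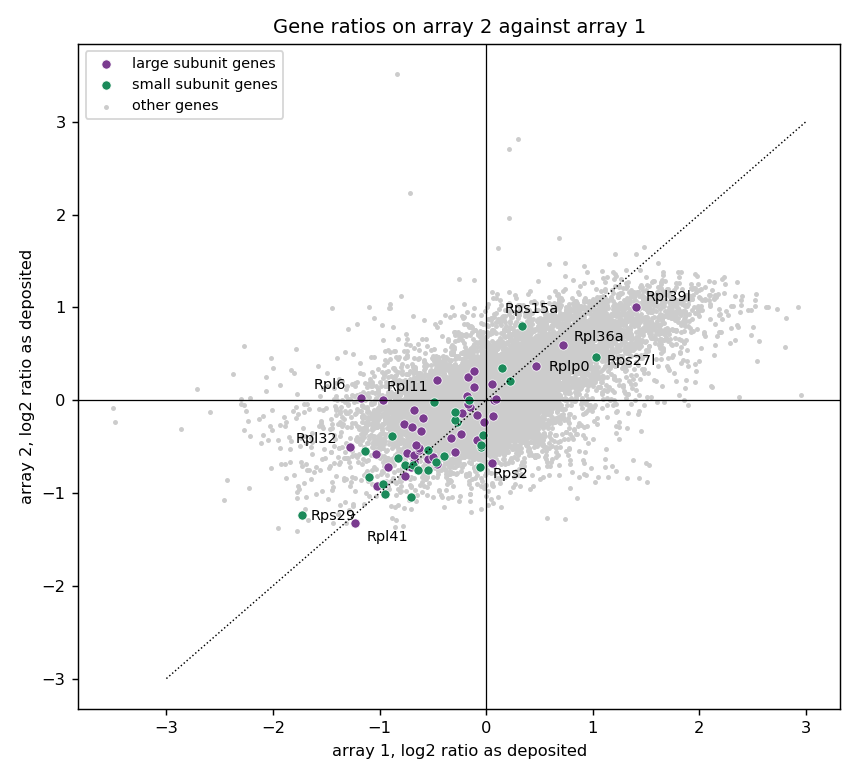
Gene ratio on array 2 against array 1 (log2 as deposited), with large subunit genes in purple, small subunit genes in green and the other genes in grey, and a dotted line of equal values. The members gather in the lower left along the line of equal values, with Rps29 and Rpl41 at its far end, while Rpl6 and Rpl11 lie left of 0 on array 1 alone.

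Grouped by place in the ribosome, most genes of the decoding and exit tunnel groups were negative on both arrays, as were 74.67% of all members. In the 5S particle this held for 1 of 2 genes, and in the P stalk for 1 of 3. In the decoding and mRNA entry group, 5 of 5 measured genes were negative on both arrays, and 1, Rps15, passed. Rps2 had -0.06 and -0.72 and Rps3 -0.49 and -0.02, so each of these entry-site proteins had 1 array close to 0. Of the 7 measured genes that line the exit tunnel or its mouth, 5 were negative on both arrays and 0 positive on both, and 0 passed, with 4 negative at an unadjusted p under 0.05 (limma). Rpl4, a tunnel wall protein, stood at 0.07 and -0.17, near the median of all genes on array 1. Of the particle built on the 5S ribosomal RNA, Rpl5 was at -0.67 and -0.66 and Rpl11 at -0.97 and 0.00. Both are known to bind MDM2 when ribosome assembly fails, as do RPL23 and RPS7 in human cells. In that group of 4, with Rpl23 at -0.46 and 0.21, Rps7 passed. Over all 75 members 13.3% passed with a negative ratio, and 36 were negative at an unadjusted p under 0.05 (limma). The shares of all genes were 0.983% and 6.67%. Groups of 2 to 7 genes are too small to be set apart from the shares of all members.

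The P stalk recruits elongation factors to the large subunit. Its base protein Rplp0, often used as a reference gene, stood at 0.47 (array 1) and 0.37 (array 2), averaging 0.42 ± 0.07 (SD, n = 2), and did not pass (limma adjusted p = 0.209). The tip proteins differed. Rplp1 had -0.63 and -0.54 (limma adjusted p = 0.0992), and Rplp2 0.10 and 0.01 (limma adjusted p = 0.899). The positive value of Rplp0 came from 1 of its 2 features, which gave 1.14 and 0.53, while the other gave -0.19 and 0.20.

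Mutations of many ribosomal protein genes cause Diamond-Blackfan anaemia in humans. Mouse counterparts of 16 of the 18 such genes listed were measured, and 13 were negative on both arrays and 1, Rps24, positive on both. The share negative on both arrays, 81.25%, was near the 74.67% of all members. The medians of the 16 were -0.63 on array 1 and -0.59 on array 2. Rps7, Rps27 and Rps29 passed, a share of 18.75%, against 13.33% of all members that passed with a negative ratio. Rps19, the gene most often mutated in that disease, did not pass, at -0.28 and -0.24 (limma adjusted p = 0.442). Its 2 features disagreed, at -0.66 and -0.51 against 0.11 and 0.03. Rpsa, which also serves as a laminin receptor, had -0.03 on array 1 and -0.37 on array 2 (limma adjusted p = 0.596).

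Members of the set with positive ratios were few. Rpl36a had 0.72 and 0.60, a mean of 0.66 ± 0.09 (SD, n = 2), and Rps15a 0.34 and 0.80, a mean of 0.57 ± 0.32 (SD, n = 2). Neither passed (limma adjusted p = 0.0737 and 0.140). Rps24, Rps20 and Rpl28 had means of 0.25, 0.21 and 0.12, each from 2 features of opposite sign. Rpl38 (0.04), Rpl3 (0.02) and Rpl22 (0.10) lay near 0, as did the negative means of Rpl9 (-0.11), Rps14 (-0.08) and Rpl14 (-0.18).

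The paralogues did not share the signs of their standard counterparts throughout. Rpl39l, a testis-enriched copy of Rpl39, stood at 1.41 (array 1) and 1.01 (array 2), averaging 1.21 ± 0.28 (SD, n = 2) or 2.31-fold (limma adjusted p = 0.0336), while Rpl39 had -0.66 and -0.48. It was the sole positive member that passed. Rps27l, a p53-induced paralogue, had 1.03 and 0.46 (limma adjusted p = 0.0825), while Rps27 had -1.10 and -0.83. In both pairs every paralogue value was positive and every standard value negative. The reverse held for Rpl36al, at -0.24 and -0.36, beside Rpl36a. Rpl22l1 stood at -0.09 and -0.43, Rpl7l1 at -0.02 and -0.23, the striated-muscle paralogue Rpl3l at -0.17 and 0.25, and Rps19bp1, a binding partner of Rps19, at -0.05 and -0.48. Without these 7 the medians were -0.55 on array 1 and -0.50 on array 2, and the passing members were 10 negative and 0 positive (limma), with 36 negative and 3 positive at an unadjusted p under 0.05.

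Of the 75 members 55 had 1 feature and 20 had more, and these groups differed in their ratios. The medians of the 55 were -0.63 (array 1) and -0.55 (array 2), with 45 negative on both arrays and 4 positive. The 20 had medians of -0.07 and -0.17, with 11 negative and 6 positive. Over all genes the medians were 0.02 and -0.01 with 1 feature, and -0.01 and -0.02 with more. The test of the difference was not made, since the genes share the arrays.

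Features of the same gene often disagreed. In 12 of the 20 members with several features, at least 1 feature was negative on both arrays and at least 1 positive on both, where 27.2% of all genes with several features had such a pair. Rps20 had a feature at -0.68 and -0.65 and another at 1.12 and 1.05. Rpl28 had -0.73 and -0.63 on its first feature and 0.85 and 0.98 on its second. Each feature therefore repeated well between the arrays while the features of the gene went opposite ways. Rps24 had -0.69 and -0.27 against 0.996 and 0.971, and Rpl17 -1.41 and -1.17 against 0.02 and 0.59. Rpsa had -0.45 and -1.25 against 0.40 and 0.51, and Rps13 -0.84 and -0.59 against 0.26 and 0.16. For the 13 members with exactly 2 features the median distance between them was 0.83, against 0.37 over the 3598 such genes. Which part of each transcript a feature matches goes unstated in the sources used here.

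Genes with 3 features showed both patterns. The features of Rps9 were close together, with means of -0.82, -0.69 and -0.68, and its gene mean of -0.73 ± 0.04 (SD, n = 2) stood just outside the threshold (limma adjusted p = 0.0547). Those of Rpl21 had means of -0.97, -0.71 and -0.04. Rpl37 (-0.87, 0.00 and 0.68), Rpl38 (-0.64, 0.30 and 0.45), Rpl23 (-0.52, -0.11 and 0.26) and Rpl27a (-0.56, -0.03 and 0.27) spread across 0. Their gene means, from -0.13 to 0.04, average features that went opposite ways.

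Rpl13a, which in human myeloid cells leaves the ribosome to silence inflammatory transcripts, had the most features of any member. On array 1 its 22 features ran from -0.76 through a median of -0.11 to 0.78, and on array 2 from -0.54 through -0.16 to 0.34. Of the 22, 14 were negative on both arrays and 2 positive on both. The gene mean was -0.12 ± 0.06 (SD, n = 2 arrays), with a 95% interval from -0.54 to 0.29 (limma adjusted p = 0.739). It was thus less negative than the member median on both arrays. The SD over its features was 0.30 within array 1 and 0.21 within array 2. Whether these features are copies of a probe goes unstated in the sources used here.

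**Figure D3:**
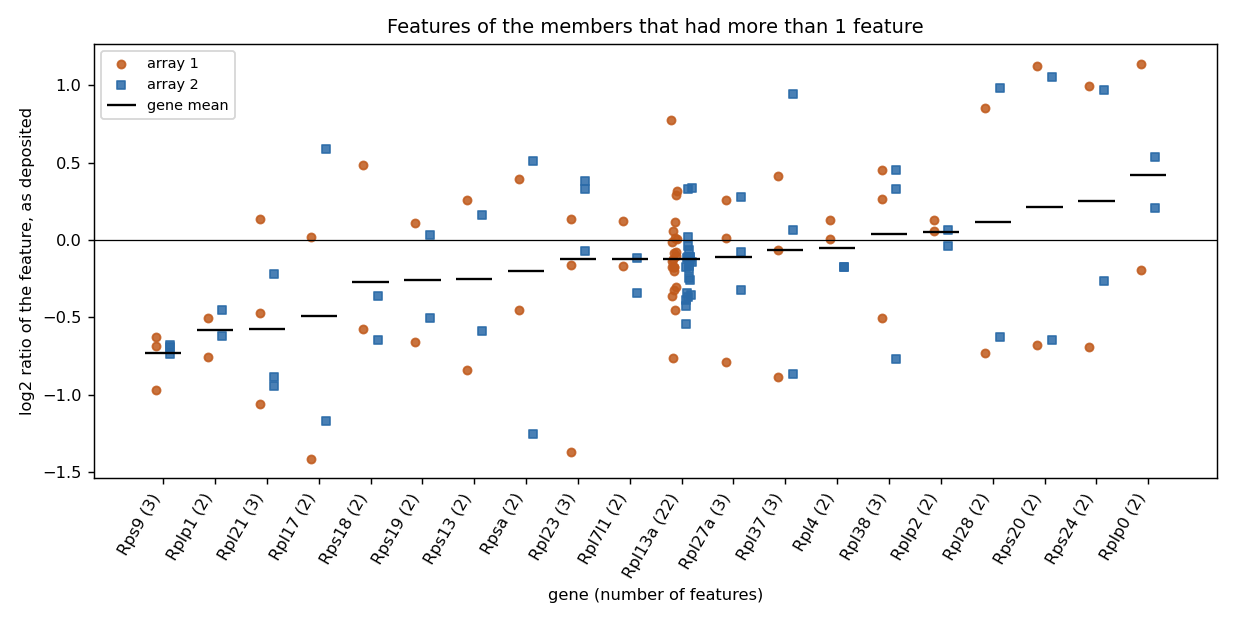
Log2 ratio as deposited of every feature of the 20 members with more than 1 feature, with array 1 as circles, array 2 as squares and the gene mean as a bar; the number of features is in brackets. Features of Rps9 and Rplp1 lie together below 0, while those of Rpl28, Rps20 and Rps24 lie on both sides of 0 on both arrays.

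Outside the rule, Fau, whose product holds the small subunit protein known as eS30 behind a ubiquitin-like domain, had -1.13 on array 1 and -0.29 on array 2 (limma adjusted p = 0.135). The 74 measured genes of the mitochondrial ribosome, a separate machine that translates the mitochondrial genome, showed medians of -0.07 (array 1) and -0.16 (array 2). Of these, 39 (52.7%) were negative and 8 (10.8%) positive on both arrays, against 34.1% and 33.7% of all genes. With a negative ratio 0 passed, near the 0.983% of all genes that did. With a positive ratio 1 passed (1.35%), against 7.28% of all genes. The 1 that passed was Mrpl57, at 1.55 and 0.95 (limma adjusted p = 0.0336). The cytosolic set had medians of -0.49 and -0.43, and no test of the difference was made.

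Other genes of translation had weaker negative medians. Of 14 measured mRNAs outside the ribosome known for a TOP tract, 10 were negative on both arrays and 2 positive, with medians of -0.38 (array 1) and -0.14 (array 2). Of these genes Eef1a1, Eef1b2, Eef1d, Eef2, Eif3e, Eif3h, Eif4b, Pabpc1 and Npm1 are counted again in the lists below. Eef1a1, the factor that brings aminoacyl-tRNA, had -2.86 and -0.31, values far apart. Eef2, the translocase, had -0.48 and -0.60 over 22 features, and Pabpc1, the poly(A)-binding protein, -0.35 and -0.64. None of these 3 passed (limma adjusted p from 0.124 to 0.163), and Nap1l1, a histone chaperone, passed with a positive ratio, at 1.29 and 0.81 (limma adjusted p = 0.0357). As 1 of 14 (7.14%) this is near the 7.28% of all genes, and 0 passed with a negative ratio, against 0.983%. Of all genes 34.1% were negative and 33.7% positive on both arrays.

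Elongation and release factors, listed together with Eef1e1 and Eef2k, had medians of -0.36 and -0.12 over 10 genes. Of these, 6 were negative and 2 positive on both arrays. The 2 positive genes were Eef1e1 and Eef2k, which are not such factors themselves. Eef1e1, an aminoacyl-tRNA synthetase complex protein, passed at 1.53 and 0.73 (limma adjusted p = 0.0399), and Eef2k, the kinase that inactivates Eef2, stood at 0.95 and 0.29 and did not. Initiation factors, listed together with Pabpc1, had medians of -0.12 and -0.10 over 33 genes, with 19 negative and 6 positive on both arrays. Of these, 0 passed the test. At an unadjusted p under 0.05, 1 was negative and 2 positive (limma), against 6.67% and 17.1% of all genes. The 1 negative gene was Pabpc1, the poly(A)-binding protein. Of the listed genes with one sign on both arrays, the largest means were those of Eif3c (0.54), Pabpc1 (-0.50), Eif3j1 (0.46) and Eif2a (-0.41). That of Eif2a comes from array 1, at -0.78, since array 2 gave -0.04.

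Genes of ribosome assembly did not follow the ribosomal proteins in sign. The medians of the 56 measured were 0.05 (array 1) and 0.01 (array 2), with 16 negative and 21 positive on both arrays. Of these, 4 passed, all with positive ratios: Utp18 and Mphosph10, of the small subunit processome, at means of 1.58 and 1.24, Rrs1, needed to assemble the large subunit, at 1.36, and Polr1c, a subunit shared by RNA polymerases I and III, at 1.15 (limma adjusted p from 0.0336 to 0.0338). The share with a positive ratio, 4 of 56, was near the 7.28% of all genes. A list of mTOR, the Rps6k kinases and regulators held 25 measured genes, with medians of -0.09 and -0.05. Of them 0 passed, against 0.983% of all genes with a negative and 7.28% with a positive ratio. At an unadjusted p under 0.05, 1 was negative and 1 positive (limma), against 6.67% and 17.1% of all genes. In this list Mycn stood at 1.31 on array 1 and 0.03 on array 2, so its mean of 0.67 comes from 1 array. As means, Tsc1, an inhibitor of mTOR, stood at 0.63, the upstream kinase Pdpk1 at -0.54 and Rptor, a scaffold of mTOR complex 1, at -0.42.

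Other abundant transcripts were about as negative as the ribosomal protein genes on array 1 and less so on array 2. Over 28 measured genes the medians were -0.59 on array 1 and -0.11 on array 2, with 15 negative and 4 positive on both arrays. On array 1, 20 of the 28 lay below the lower quartile of all genes, and on array 2, 12 did. Lgals1, a galectin (-1.71 and -0.89), and Hspa8, a chaperone (-1.37 and -0.66), passed (limma adjusted p = 0.0338 and 0.0445). The ferritin chains Ftl1 (-1.45 and -0.56) and Fth1 (-1.28 and -0.41) did not. With a negative ratio 2 of the 28 passed (7.14%), against 0.983% of all genes and 13.3% of the ribosomal protein genes. With a positive ratio 0 passed, against 7.28% of all genes. Spot intensities were not analysed here, and the part of transcript abundance in the ratios of the ribosomal protein genes was not tested.

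Adipocyte, fibroblast and milk gene lists had negative medians on array 1 and medians near 0 on array 2. Adipocyte markers had medians of -0.62 and -0.08 (7 of 14 negative, 3 positive on both arrays), fibroblast markers -0.47 and -0.04 (5 of 11 and 0), luminal markers -0.07 and -0.01 (5 of 13 and 4) and milk genes -0.34 and 0.05 (3 of 9 and 3). Basal markers had medians of 0.04 and -0.06, lymphocyte markers -0.11 and -0.13, macrophage markers -0.21 and -0.10, endothelial markers 0.15 and 0.12 and skeletal muscle genes -0.18 and -0.20. Members of a list went both ways. Those that passed were Aldh1a3 (1.29) and Cd24a (1.07) of the luminal, Csn3 (0.93) of the milk, Cd3g (0.89) of the lymphocyte and Ctss (1.45) of the macrophage list, all with positive means, and the basal keratin Krt5 (-0.97) with a negative one (limma adjusted p from 0.0336 to 0.0494). They were 2 of 13 luminal genes and 1 each of 9 milk, 12 lymphocyte, 9 macrophage and 10 basal genes. Of all genes 7.28% passed with a positive and 0.983% with a negative ratio, so positive calls were the commoner kind throughout. On array 2 none of these lists had a median as negative as the -0.43 of the ribosomal protein genes. In RNA of a whole gland, fewer cells of a type and less RNA per cell cannot be told apart, and the part of cell makeup in the ribosomal protein ratios was not tested.

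**Figure D4:**
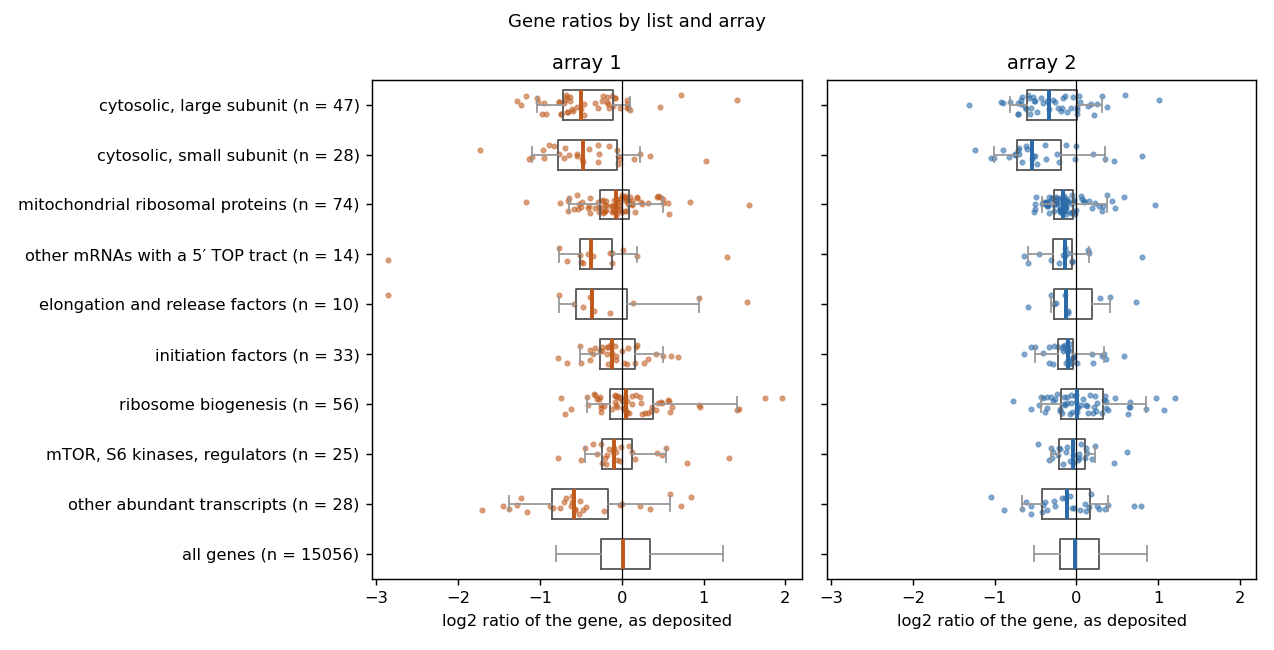
Gene ratios (log2 as deposited) on array 1 and array 2 for both subunits of the cytosolic ribosome, other lists of translation, other abundant transcripts and all genes; points are genes, boxes span the quartiles, whiskers the 5th to 95th percentiles, and the coloured bar is the median. On array 2 the subunit medians of -0.33 and -0.54 stand left of every other list, while on array 1 other abundant transcripts reach -0.59.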

How the data were processed

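Null (Cy3) and het (Cy5) mammary gland RNA was compared on 2 arrays. The authors' deposited values are log ratios, read here as log2 from their range. Per the series' design text they were made with print-tip lowess in Acuity 4.0. The log base, numerator, background correction and spot filters go unstated in the sources used here. Each of the 38976 features had a ratio on each array, and 22973 had 1 gene symbol. Features of a gene were averaged per array. Each gene was tested against a ratio of 0 in limma (version 3.58.1, R 4.3.3) by a two-sided test in an intercept-only model with limma's default prior, adjusted by Benjamini-Hochberg across 15056 genes at a threshold of 0.05. There was 1 residual degree of freedom for each gene, to which the prior added 5.41, so the test rests on variance shared across genes. It was tested on simulated data, with the number of genes and the variance prior taken from the gene fit. Large planted ratios were recovered. The prior degrees of freedom were mostly estimated too high, and unchanged genes made up more of the calls than the threshold allows, so the test is somewhat liberal here. The number of arrays limits the precision. The members and lists were chosen with earlier results of these data known. Genes were named by a rule: members past the test, the extremes of each subunit, members with 3 or more features, the paralogues, and up to 4 genes of each other list. Other members and Mrpl57 were named after their values were seen. Promoter windows came from RefSeq on GRCm38.p6, and protein sequences were not used here. Alternatives covered the scaling, feature averaging, a filter on disagreeing features, the prior, the threshold and each array alone.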

Additional observations from a re-analysis of the deposited data

How the results depend on the processing

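Each value is a ratio of null and het RNA within an array, so testing it against 0 is itself a paired comparison. No further paired analysis was possible because the arrays share no other replicate number to use as a block. The negative median of the members held under all alternatives run. The count of passing members moved most, from 10 negative and 1 positive (limma). Subtracting the array medians gave 19 and 3, scaling to equal median absolute deviation 22 and 3, and quantile normalization 31 and 3. It was 32 and 4 without features whose arrays differed by more than 1, 25 and 3 at an adjusted p of 0.1, and 0 and 0 for features in place of genes or for members with 2 or more features. Without the paralogues 0 positive members passed. All 11 passing members were also among those passing under the 3 scalings, the filter and the robust prior. With the median of features 8 remained, and Rpl10, Rpl30 and Rps15 were lost. Each of these 3 has 1 feature, so its ratio was the same, and the fit over all genes moved. The lowest adjusted p of all genes went from 0.0336 to 0.04535 (limma). All genes past the test numbered 1244 as reported, 1793 with medians subtracted, 2052 with arrays of equal deviation, 2391 after the quantile step, 2815 with the filter, 942 with the median of features and 1183 with the robust prior. Of these, 11.9%, 13.7%, 15.9%, 21.5%, 25.2%, 10.1% and 11.3% were negative. Members with 2 or more features had medians of -0.12 in all, -0.11 for the large and -0.25 for the small subunit, with 11 negative and 6 positive on both arrays. Members with 1 feature, an alternative chosen after seeing the data, had medians of -0.57 in all and -0.63 for the small subunit, with 4 positive on both arrays. Quantile normalization gave the small subunit -0.57. Leaving out an array in turn gave 58 to 63 negative and 12 to 17 positive members, and medians from -0.49 to -0.43 for all members, -0.50 to -0.33 for the large and -0.54 to -0.48 for the small subunit. Rpl23, at -0.13, became 0.0715 with the filter and 0.0835 with the median of features, and Rpl37, at -0.06, became 0.002 with the median. The filter left out the Rpl23 feature at -1.37 (array 1) and 0.33 (array 2). With the median, the changes follow from the spread of the features of each gene. Why the features of these genes differ was not tested. Ratios without spot intensities allowed no filter on dim spots.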

Other observations

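The Rps6k kinase genes, left out of the set by rule, encode kinases named after Rps6, some of which phosphorylate it. Rps6kl1 stood at -0.35 (array 1) and -0.48 (array 2), and Rps6kb2, an S6 kinase, -0.45 and -0.31, both negative on both arrays. Rps6ka5 was positive on both, at 0.44 and 0.13, while Rps6ka3, Rps6ka6 and Rps6kc1 had opposite signs on the arrays. None of these 6 genes passed the gene-level test (limma adjusted p from 0.219 to 0.991).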
